A study of Homo sapiens with 4 samples.

Results

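Circular RNAs (circRNAs) of ubiquitin ligase gene families were examined in AGS cells, an established human gastric adenocarcinoma line. The members were taken by name. They are all circRNAs whose host gene symbol begins with RNF, TRIM, HECTD, HERC, UBE3, UBR, FBX or KLHL, together with those of HUWE1, with RNF43 left out. By this rule 279 of the 11760 listed circRNAs were members, and they came from 88 of 4410 host genes. Reads were present for 167 of them, from 73 hosts, against 7587 of 11760 circRNAs and 3532 hosts in the whole table. The members without reads in any library included all listed circRNAs of 15 hosts, among them RNF2, RNF8, RNF126, FBXW2, FBXO22 and TRIM16.

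Cells transfected with FLAG-tagged DDX5 (DDX5), an RNA helicase that was thereby overexpressed, were compared with cells that received the FLAG-tagged empty vector (NC), to ask which circRNAs change with DDX5, with 2 libraries in each group. RNA was depleted of rRNA and treated with RNase R, which degrades linear RNA. The counts used here are of back-splice reads alone and give no measure of DDX5 mRNA, so the overexpression was not checked in them. The study's supplement lists a western blot for DDX5 levels after treatment, which was not examined here. The replicates are described as biological, but separate cultures are not stated, and p-values therefore refer to the spread between these libraries. The sample labels give DMEM as the medium and the study's methods RPMI.

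Ubiquitin is passed from an E1 activating enzyme to an E2 conjugating enzyme and, with the help of an E3 ligase, to a substrate. RING proteins, which include most RNF and TRIM members, bring E2 and substrate together, whereas HECT ligases such as UBE3A, UBE3C, HERC2 and HUWE1 first take the ubiquitin onto a cysteine of their own. Several UBR proteins recognise destabilising N-terminal residues through the UBR box, F-box proteins (FBXW, FBXL, FBXO) present substrates to SKP1-CUL1 ligases, and KLHL proteins do so for CUL3, so the last 2 groups are adaptors rather than ligases by themselves. A circRNA forms when the end of a downstream exon is joined to the start of an upstream exon, a reaction called back-splicing. Its reads are recognised by that junction, and they report neither the linear mRNA nor the protein of the host.

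The junctions that mark the circles described most closely are shown first, since a junction is what each count counts. Each line gives 40 bases 5′ to 3′ in the direction of the transcript. The lower case letters are the last 20 bases of the last exon in the circle, and the capitals are the first 20 bases of its first exon. Exon numbers, given in parentheses in each name, and bases are those of GENCODE 29 transcripts on GRCh38, and the circle's place in the genome follows in the coordinates of the count table. Those coordinates resemble hg19 rather than the hg38 named in the submitters' processing notes, since only 1 of the 279 member starts equals an exon start of GENCODE 29 on GRCh38. An exon range was therefore given where a circle's genomic span equals that of exactly 1 range of host exons, which held for 269 of 279 members (96.4%) and for 96.4% of the whole table. The first 6 circles are among the most abundant members, and the last 4 had an unadjusted p under 0.05.
circFBXW4(2-5), chr10:103427643-103436193: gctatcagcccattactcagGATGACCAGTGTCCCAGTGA
circFBXW4(2-4), chr10:103432672-103436193: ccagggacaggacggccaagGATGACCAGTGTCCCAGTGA
circRNF19B(2-3), chr1:33413823-33415375: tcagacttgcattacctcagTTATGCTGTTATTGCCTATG
circRNF138(3-4), chr18:29691717-29693823: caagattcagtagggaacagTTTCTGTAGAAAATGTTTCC
circFBXO11(12-13), chr2:48049357-48050499: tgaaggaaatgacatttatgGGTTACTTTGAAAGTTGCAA
circUBR2(3-4), chr6:42559889-42562042: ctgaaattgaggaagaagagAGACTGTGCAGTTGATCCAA
circHUWE1(53-54), chrX:53588717-53589205: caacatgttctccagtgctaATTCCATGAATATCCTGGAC
circUBR2(5-7), chr6:42571326-42574389: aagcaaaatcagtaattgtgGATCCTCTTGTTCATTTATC
circUBE3C(16-17), chr7:157015948-157018233: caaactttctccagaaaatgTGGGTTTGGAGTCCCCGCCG
circFBXO31(3-5), chr16:87376483-87380856: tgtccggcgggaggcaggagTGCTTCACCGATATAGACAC
Both FBXW4 circles carry the same capitals, the start of exon 2, and differ in the lower case part, because back-splicing joined the ends of different exons to the same start. All 10 lie within coding exons of their hosts.

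Depth came to 78377 and 60178 back-splice reads for DDX5 replicates 1 and 2, and to 73173 and 97961 for NC replicates 1 and 2, and 1 read was worth between 10.2 and 16.6 RPM, the unit in which all libraries have the same total of back-splice reads. Members held 1360, 912, 906 and 1790 of those reads. Their share was 1.74% in DDX5 replicate 1 (95% Wilson interval 1.65 to 1.83%, counting error only), 1.52% in DDX5 replicate 2 (1.42 to 1.62%), 1.24% in NC replicate 1 (1.16 to 1.32%) and 1.83% in NC replicate 2 (1.75 to 1.91%). The NC replicates lay at the 2 ends of this range, with both DDX5 libraries between them. The mean share was 1.63 ± 0.155% (SD, n = 2) in DDX5 cells and 1.53 ± 0.417% in NC cells, which is less apart than the NC replicates were (exact permutation test, two-sided, p = 1, where the smallest p that 2 against 2 libraries allow is 0.333). Members were also 1.90 and 2.47% of the circRNAs detected in DDX5 cells and 1.80 and 2.46% of those detected in NC cells (2.18 ± 0.405 against 2.13 ± 0.462%, exact permutation test, p = 0.667), again with overlapping groups.

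By family, the RNF genes gave the most member reads, 1317 from 47 circRNAs of 23 hosts (26.5% of all member reads). F-box genes followed with 1105 reads from 27 circRNAs, HECT genes with 960 from 42, UBR genes with 769 from 23, TRIM genes with 501 from 19 and KLHL genes with 316 from 9. HECT and UBR hosts gave the most circles each, on average 3.82 and 3.83 circRNAs with reads per host against 2.15 over all hosts. KLHL hosts gave 1.29.

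The summed level of the HECT circles was 3891 and 3290 RPM in DDX5 cells and 2351 and 2909 RPM in NC cells, the only family whose groups did not overlap on the RPM scale. The difference of 961 RPM had an exact permutation p of 0.333, the smallest possible here. With TMM factors, the scaling used in the tests below, DDX5 replicate 2 fell under NC replicate 2 (3019 against 3081 scaled RPM), and the groups overlapped. With RLE factors it stayed above (3113 against 3049), and the groups did not overlap. In DDX5 replicate 1, circUBE3A(4-8) alone made up 90 of the 305 HECT reads, or 1148 of the 3891 RPM. Without that circle, DDX5 replicate 1 would lie below NC replicate 2 on the RPM scale, and the groups would overlap. RNF circles reached 4210 and 5251 RPM in DDX5 cells against 3048 and 4573 in NC cells. UBR circles spread widest within groups, at 2922 and 1263 RPM with DDX5 and 1572 and 3563 RPM in NC cells, and in both groups the replicates lay farther apart than the group means. F-box (3955 and 2858 against 2925 and 4175 RPM), TRIM (1225 and 1878 against 1613 and 1776) and KLHL circles (1148 and 615 against 875 and 1276) overlapped as well.

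**Figure D1:**
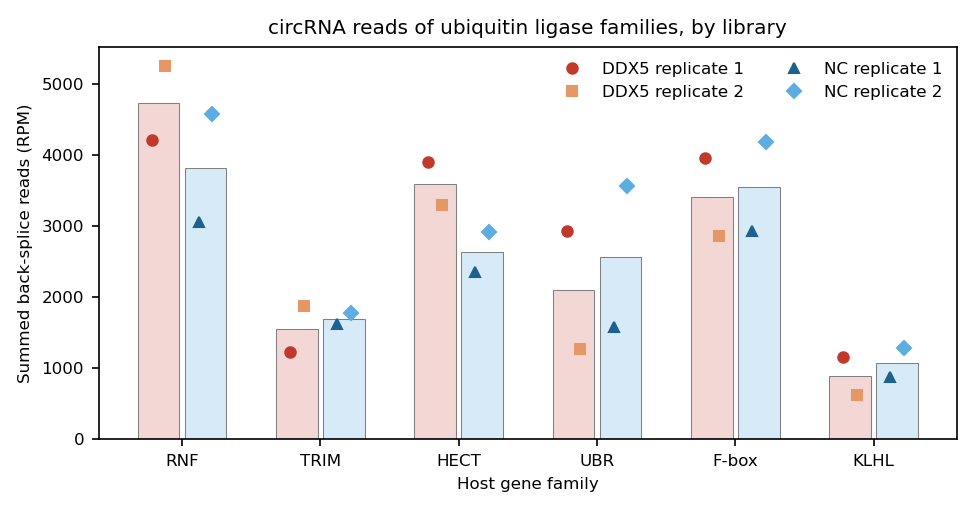
Summed back-splice reads of each family in RPM (y axis) for the 4 libraries. Points are libraries, and bars are the means of 2 libraries per group. HECT is the only family in which both DDX5 libraries (3891 and 3290 RPM) lie above both NC libraries (2351 and 2909 RPM), an order that TMM scaling turns into overlap. The order also rests on circUBE3A(4-8), read in DDX5 replicate 1 alone.

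Of single circRNAs, few members were called. The test took the 4671 circRNAs with a total of 10 reads or more. Of these 102 were members and were tested with edgeR's quasi-likelihood test on the counts. At an unadjusted p under 0.05, 2 members were higher in DDX5 cells (1.28% of all tested circRNAs were, 1.96% of members) and 3 were lower (1.37% of all, 2.94% of members). After Benjamini-Hochberg adjustment over all tested circRNAs 1 member passed, circUBE3A(4-8), where 0.0856% of all tested circRNAs passed. DESeq2 gave, at an unadjusted p under 0.05, 3 higher members (1.65% of all tested circRNAs) and 6 lower members (1.91% of all), and limma on log2(RPM + 1) gave 5 higher (3.53% of all) and 8 lower (6.27% of all). After adjustment both gave 0 members, where 0.0428% (DESeq2) and 0% (limma) of all tested circRNAs passed. Both DDX5 libraries lay above both NC libraries for 11 of the 102 members (10.8% of all tested circRNAs), and both NC libraries lay above both DDX5 libraries for 12 (12.5% of all). With TMM scaling, the first of these counts was 8 and the second 12. The matching shares of all tested circRNAs were not computed for that scaling, so the drop cannot be read as particular to the members. The median log2 fold change of DDX5 over NC, with circles absent from 1 group set at their bound, was 0.14 over the 102 members and -0.15 over all tested circRNAs. Over the 18 tested members with reads in all 4 libraries it was 0.13, against 0.07 over the 1011 such circRNAs of the whole table.

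**Figure D2:**
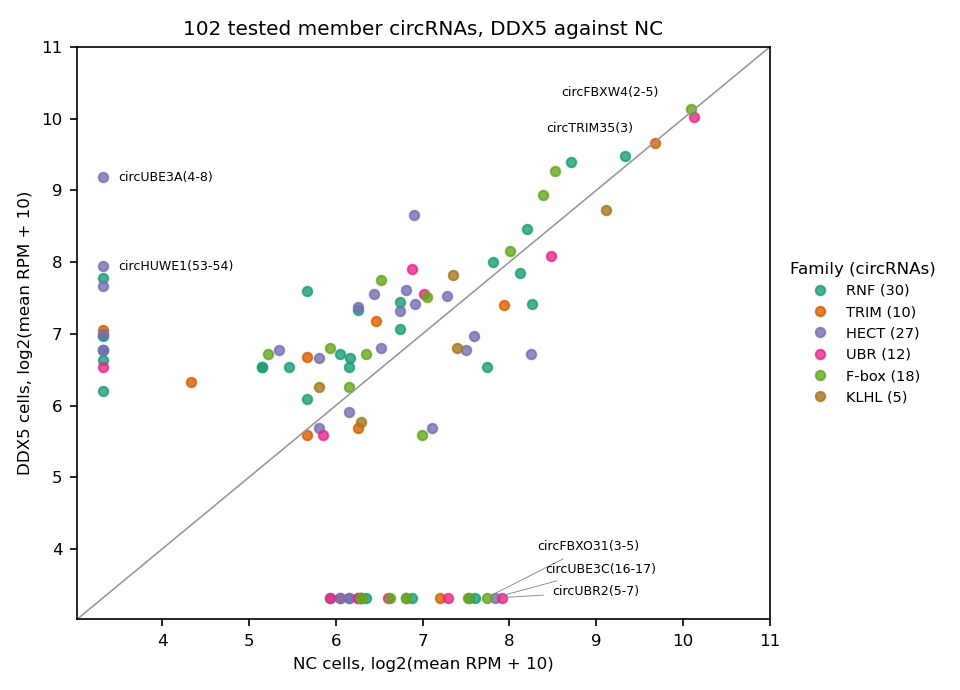
Mean level of the 102 tested member circRNAs in NC cells (x axis) and DDX5 cells (y axis), both as log2(mean RPM + 10), with the line of equal level and the family as colour. Circles without reads in 1 group lie along the left or lower edge, where those with an unadjusted p under 0.05 are named. The abundant circFBXW4(2-5) and circTRIM35(3) lie close to the line.

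Most member circles were seen in few libraries. Of the 167 with reads, 90 (53.9%) were found in 1 library only and 18 (10.8%) in all 4, against 55.4 and 13.3% of the 7587 circRNAs of the whole table. Those 18 held 46.7% of the member reads. The deepest library, NC replicate 2, was the sole source of 40 circles, and the other libraries of 15 to 18 each. Where a member had at least 10 reads in a library, its group's second library had 0 in 70 of 173 cases (40.5%), against 35.6% for the whole table. A count of 0 therefore often stood beside a clear count within a group, which bears on each circle below that was read in 1 group only. By counting error alone, a count of 0 also allows up to 3 reads, between 30.6 and 49.9 RPM in the single libraries. Folds given below as at least a value set the empty group at 3 reads over its libraries. They allow for counting error in that 0 but not for such gaps between replicates, so they are not firm lower limits.

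Among RING genes of the RNF family, 0 of 30 tested circRNAs had an unadjusted p under 0.05 by edgeR's quasi-likelihood test, against 1 higher and 2 lower by DESeq2 (1.65 and 1.91% of all tested circRNAs) and the same numbers by limma on log2(RPM + 1) (3.53 and 6.27% of all), with 0 adjusted calls in each of the 3 (0.0856, 0.0428 and 0% of all). The leading circle came from RNF19B, a RING-between-RING ligase, and circRNF19B(2-3) had 66 and 34 reads in DDX5 cells against 43 and 67 in NC cells (704 ± 196 against 636 ± 68.1 RPM, SD, n = 2). The DDX5 libraries lay at both ends of that range. RNF138 is a ligase that acts in the repair of DNA double-strand breaks. Its circRNF138(3-4) had 36 and 52 reads in DDX5 cells against 27 and 44 in NC cells, or 662 ± 286 against 409 ± 56.7 RPM. Both DDX5 libraries were above both NC libraries in RPM, although not with TMM scaling, and the log2 fold change of 0.56 with a standard error of 0.82 did not pass (edgeR, adjusted p = 0.969).

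RNF13, a membrane-anchored ligase of endosomes and lysosomes, gave 5 circles with reads, of which 4 began at exon 3. The circle of exons 3 to 5, which holds the start codon, had 17 and 28 reads in DDX5 cells against 11 and 41 in NC cells, and shares 30 bases at an end with another annotated gene. The circle of exons 3 to 9 had 13 and 0 reads in DDX5 cells against 0 and 40 in NC cells. RNF13 as a host had 44 and 28 against 16 and 91 reads, so that the NC replicates lay below and above both DDX5 libraries. The same spread within NC cells was seen for RNF10, a ligase that modifies ribosomal proteins of the small subunit, with 34 and 11 reads in DDX5 cells against 10 and 77 in NC cells over 4 circles. RNF149 had 20 and 34 against 20 and 39 reads, and RNF216, a RING-between-RING ligase, had 15 and 16 against 9 and 38 reads over 5 circles.

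Of the TRIM genes, most of which carry a RING, B-boxes and a coiled coil, TRIM35 dominated. Its circTRIM35(3), a single exon, had 41 and 65 reads in DDX5 cells against 56 and 83 in NC cells, and the means were nearly equal at 802 ± 394 and 806 ± 58.0 RPM. TRIM33, which acts on SMAD proteins of the TGF-beta pathway, had 12 and 10 reads in DDX5 cells against 18 and 26 in NC cells (160 ± 9.24 against 256 ± 13.7 RPM). Both NC libraries were higher, but the host did not pass (log2 fold change -0.72 with a standard error of 1.34, edgeR, adjusted p = 1.00). TRIM37, a ligase that limits centriole assembly, had 11 and 5 against 4 and 26 reads over 4 circles, and TRIM24, a chromatin reader of the same subgroup as TRIM33, had 6 and 0 against 15 and 5. By edgeR's quasi-likelihood test, 0 of 10 tested TRIM circRNAs had an unadjusted p under 0.05, against 0 by DESeq2, and 1 higher and 1 lower by limma on log2(RPM + 1) (3.53 and 6.27% of all tested circRNAs).

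**Figure D3:**
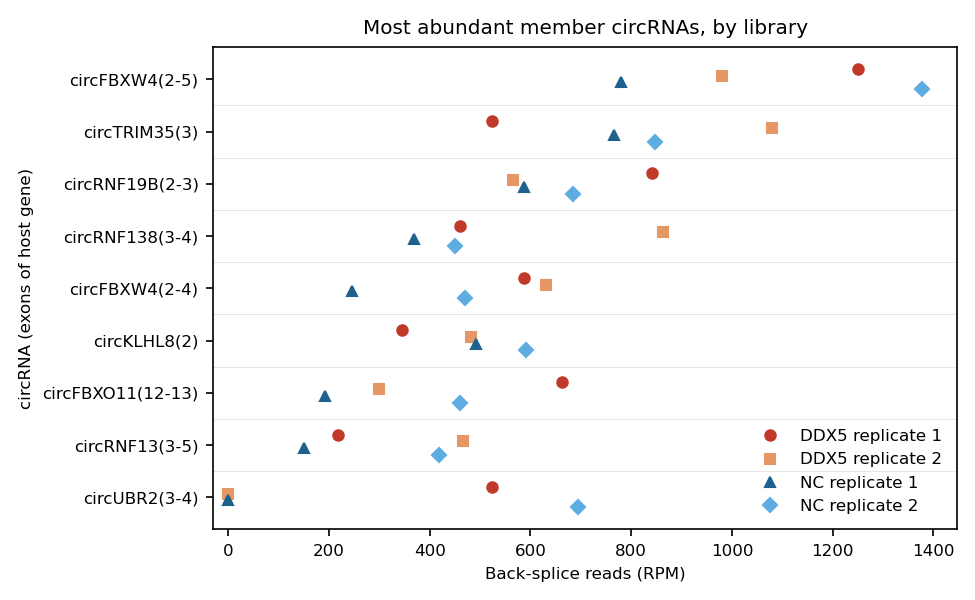
Back-splice reads in RPM (x axis) of 9 member circRNAs that are among the 10 with the highest mean level, with 1 point per library. For circTRIM35(3) and circFBXW4(2-5) the replicates of a group lie farther apart than the group means, and circUBR2(3-4) is present only in DDX5 replicate 1 and NC replicate 2.

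HECT genes held the sole adjusted call. UBE3A, the ligase lost in Angelman syndrome and recruited by papillomavirus E6 to degrade p53, had 1 circle with reads, circUBE3A(4-8) at chr15:25650608-25657118. It had 90 reads in DDX5 replicate 1 and 0 in each of the other 3 libraries, including the second DDX5 replicate. Against a floor of 3 reads over both NC libraries, the pooled DDX5 reads were at least 37.1-fold higher. That bound rests on DDX5 replicate 1 alone and does not hold for DDX5 replicate 2, which was as empty as the NC libraries. By edgeR's quasi-likelihood test the adjusted p was 0.0272. The circle also passed in edgeR with RLE factors (adjusted p = 0.0152), no scaling factors (0.0182) and no filter on reads (0.0099). It did not pass when only circRNAs with 20 reads or more were tested (edgeR, adjusted p = 0.9998). The log2 fold change was 8.5, and 8.5, 8.4 or 9.6 with NC replicate 1, NC replicate 2 or DDX5 replicate 2 left out. Without DDX5 replicate 1 no read remained. With DESeq2 the adjusted p was 0.813. In the transcript used, this circle is 437 bases long and nearly all 5′ leader, since it ends 2 bases into the start codon. Its span is compatible with 16 transcripts, whose spliced lengths run from 106 to 535 bases. Summed per host, UBE3A had the same 90 reads and did not pass (edgeR, adjusted p = 1.00).

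HUWE1, a large ligase whose substrates include MCL1 and p53, gave 7 circles. Its circHUWE1(53-54) had 11 and 20 reads in DDX5 cells and 0 in both NC libraries, at least 12.8-fold higher by counting error alone (edgeR, adjusted p = 0.950). Its circHUWE1(21-22) had 15 and 0 reads in DDX5 cells against 19 and 32 in NC cells. Summed, HUWE1 had 46 and 45 against 29 and 76 reads (667 ± 114 against 586 ± 268 RPM), so the order seen for exons 53 to 54 was not that of the gene's circles together.

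UBE3C, a proteasome-associated ligase, gave the most circles of any member, 10 with reads of 13 listed. They began at different exons, but 4 of them shared the start of exon 15 and 3 the end of exon 17. Its circUBE3C(16-17) had 0 reads in both DDX5 libraries and 17 and 20 in NC cells, at least 9.99-fold lower in DDX5 cells (edgeR, adjusted p = 0.950). The circle of exons 15 to 17, with the same end, had 0 and 5 against 0 and 9 reads. That of exons 15 to 19 was read in all 4 libraries, with 9 and 7 against 20 and 9 reads. As a host UBE3C had 22 and 30 reads in DDX5 cells against 37 and 67 in NC cells (390 ± 154 against 595 ± 126 RPM). Both NC libraries were higher, without passing the test (log2 fold change -0.67 with a standard error of 0.71, edgeR, adjusted p = 1.00).

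HECTD4 had 56 and 43 reads in DDX5 cells against 39 and 0 in NC cells over 6 circles, and the level of 715 RPM was the same in both DDX5 libraries (log2 fold change 1.40 with a standard error of 1.30, edgeR, adjusted p = 1.00). The groups did not overlap, but NC replicate 1 stood at 533 RPM and NC replicate 2, the deepest library, at 0. HERC2, which works with RNF8 at DNA breaks and has partial copies elsewhere in the genome, had 28 and 17 against 25 and 43 reads. The circles of UBE3D, whose protein lacks a classical HECT domain, were left aside for the place of that domain. Of the 34 other HECT circles with reads and a coding place, 8 held codons of the last 350 residues, taken as the place of the HECT domain. Of those 8, 7 came from UBE3C. The 8 circles carried 139 of 779 reads. Among them circUBE3C(14-17), circUBE3C(15-17) and circUBE3C(16-17), with 6, 14 and 37 reads, end at residue 745 of 1083 and hold only the edge of that stretch.

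**Figure D4:**
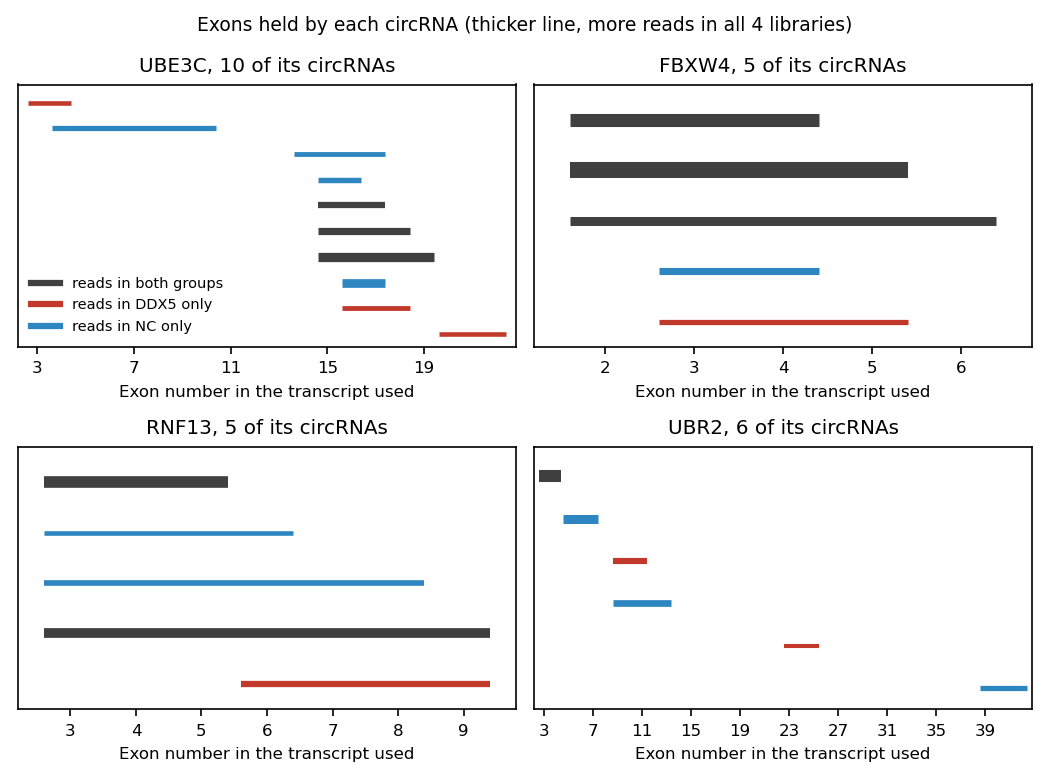
Exons held by each circRNA with reads of UBE3C, FBXW4, RNF13 and UBR2, as exon numbers of the transcript used (x axis), with 1 line per circle, thicker for more reads, and coloured by the groups with reads. For UBE3C 4 lines start at exon 15, for FBXW4 3 start at exon 2, and for RNF13 4 start at exon 3. The UBR2 circle of exons 9 to 11 is numbered in another transcript, and 1 UBR2 circle with no exon match is not drawn.

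UBR circles varied most between replicates. UBR2, a recognition ligase of the N-degron pathway, had 54 and 3 reads in DDX5 cells against 13 and 128 in NC cells over 7 circles. Its circUBR2(3-4) had 41 reads in DDX5 replicate 1, 68 in NC replicate 2 and 0 in both others, so presence followed neither group. The neighbouring circUBR2(5-7) had 0 reads in both DDX5 libraries and 13 and 28 in NC cells, at least 11.1-fold lower in DDX5 cells (edgeR, adjusted p = 0.950).

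UBR1, a close relative with the same role, had 36 and 8 reads in DDX5 cells against 0 and 44 in NC cells, and its circUBR1(41-46) repeated the pattern of circUBR2(3-4) with 36, 0, 0 and 21 reads. In all, 8 member circles were read only in DDX5 replicate 1 and NC replicate 2. They were 4.79% of the members with reads, against 4.20% in the whole table for that pair, and held 348 reads (7.0% of member reads, against 2.54%). This pair did not stand out by number. Another 8 members were read only in DDX5 replicate 2 and NC replicate 2 (2.52% in the whole table), and 8 only in both NC libraries (4.06%). The remaining pairs had 4 to 6 each. UBR4, a very large protein of the same pathway, had 38 and 0 against 28 and 32 reads over 5 circles. Its circUBR4(10-11), with 0 reads in DDX5 cells against 11 and 14 in NC cells, was at least 6.75-fold lower (edgeR, adjusted p = 0.950), while its circUBR4(8-9) had 28 and 0 against 10 and 10 reads. UBR7 was read in NC replicate 2 alone, with 13 reads.

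F-box circles included the most abundant member. FBXW4, also called dactylin and linked to split hand and foot malformation, had 5 circles, and circFBXW4(2-5) had 98 and 59 reads in DDX5 cells against 57 and 135 in NC cells (1115 ± 191 against 1079 ± 424 RPM). The NC replicates lay below and above both DDX5 libraries. The shorter circFBXW4(2-4), which shares its first exon, had 46 and 38 against 18 and 46 reads (609 ± 31.5 against 358 ± 158 RPM). Both DDX5 libraries were higher for it, without passing the test (log2 fold change 0.64 with a standard error of 0.87, edgeR, adjusted p = 0.950). An end of this circle is identical over 30 bases with the pseudogene FBXW4P1, so reads of that end alone cannot tell the gene from the pseudogene. The 3 circles from the start of exon 2 summed to 162 and 108 reads in DDX5 cells against 87 and 181 in NC cells.

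FBXO11, an adaptor for BCL6, gave circFBXO11(12-13) with 52 and 18 against 14 and 45 reads, again with each group holding a high and a low library. FBXO7, an adaptor gene mutated in a form of parkinsonism, had 40 and 23 against 37 and 29 reads over 3 circles that all began at exon 2, and FBXW8, a partner of CUL7, had 21 and 0 against 29 and 10 over 4. FBXO31 directs cyclin D1 to degradation. Its circFBXO31(3-5) had 40 reads in NC replicate 2 and 0 in the 3 other libraries. The fold of at least 10.8 lower in DDX5 cells (edgeR, adjusted p = 0.950) thus rests on a single library, as for UBE3A.

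KLHL8, an adaptor for CUL3, led its family. Its circKLHL8(2), a single exon with the start codon behind 151 bases of leader, had 27 and 29 reads in DDX5 cells against 36 and 58 in NC cells (413 ± 97.2 against 542 ± 70.8 RPM). Both NC libraries were higher, but the difference did not pass (log2 fold change -0.51 with a standard error of 0.87, edgeR, adjusted p = 1.00). KLHL21, which acts in cell division, had 34 and 0 against 6 and 22 reads, KLHL2 had 16 and 0 against 6 and 29, KLHL22 had 0 and 8 against 6 and 9, and KLHL5 had 7 and 0 against 10 and 0. In each of these 4 hosts the groups overlapped.

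Circles read in both libraries of 1 group and in neither of the other were 5 higher in DDX5 cells (3.53% of all tested circRNAs, 4.90% of tested members) and 8 lower (6.27% of all, 7.84% of tested members). They are the same members that limma on log2(RPM + 1) gave at an unadjusted p under 0.05, so those calls are not a separate result. Besides that of HUWE1, the first kind included circles from RNF168, which marks histone H2A at DNA breaks (16 and 13 reads in DDX5 cells, at least 11.9-fold, edgeR, adjusted p = 0.950), from TRIM44, a TRIM protein without a RING (5 and 11 reads), and from exons 53 to 54 of HECTD4 (8 and 8 reads, and for TRIM44 and HECTD4 at least 6.59-fold). Besides those of UBR2, UBE3C and UBR4, the second kind came from RNF41, which degrades the receptor ERBB3 (18 and 12 reads in NC cells), RNF10 (10 and 21), FBXL16 (18 and 10, a single exon with the start codon), TRIM4 (17 and 4) and FBXO18, a helicase also called FBH1 (6 and 12). Their bounds ran from 4.86-fold for FBXO18 to 8.37-fold for RNF10, and none of these 5 had an unadjusted p under 0.05 (edgeR, adjusted p = 0.950 for each).

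**Figure D5:**
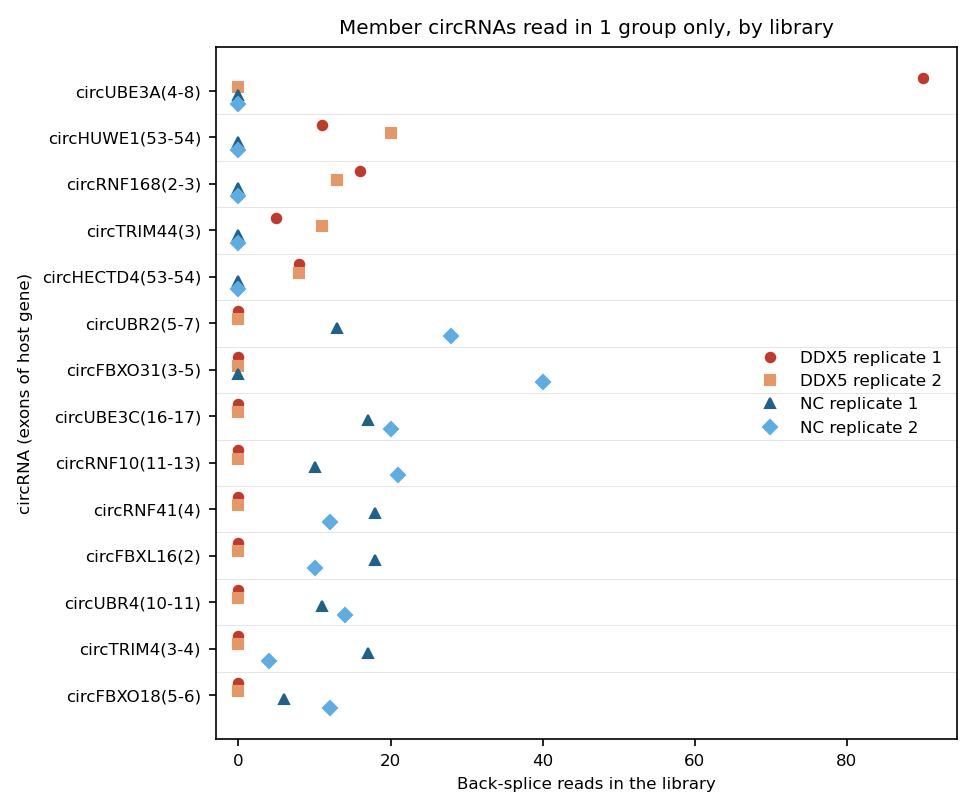
Back-splice reads per library (x axis) of 14 member circRNAs that were read in 1 group only. The upper 5 were read in DDX5 cells and the lower 9 in NC cells. The reads of circUBE3A(4-8) come from DDX5 replicate 1 alone and those of circFBXO31(3-5) from NC replicate 2 alone, and the other 12 had between 4 and 28 reads in each library of their group.

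Summed per host gene, the members gave no adjusted call. Of 2703 hosts with at least 10 reads, 57 were members. At an unadjusted p under 0.05 by edgeR's quasi-likelihood test, 1 was higher in DDX5 cells, UBE3A (1.11% of all tested hosts), and 0 were lower (1.41% of all). After adjustment 0 passed, as for all hosts (0%). DESeq2 gave 0 member hosts as well (0.037% of all), with an unadjusted p under 0.05 for 1 higher host (1.81% of all) and 2 lower hosts (3.07% of all). Adjusted calls by limma on log2(RPM + 1) were also 0 (0% of all), with 3 higher (2.55% of all) and 5 lower (5.55% of all) at the unadjusted threshold. Both DDX5 libraries lay above both NC libraries for 6 hosts (13.2% of all, 10.5% of members), and both NC libraries above both DDX5 libraries for 9 (15.8% of all and of members). The median log2 fold change of pooled RPM, with hosts absent from 1 group set at their bound, was -0.03 over member hosts and -0.10 over all. By edgeR the median was 0.0038 over member hosts and -0.13 over all tested hosts. A further list of 126 ubiquitin ligase genes outside these families, such as cullins, NEDD4 relatives and subunits of the anaphase-promoting complex, had 110 tested circRNAs. At an unadjusted p under 0.05 by edgeR, 0 of these were higher and 0 lower, against 0 and 1 by DESeq2 (1.65 and 1.91% of all tested circRNAs) and 5 and 9 by limma on log2(RPM + 1) (3.53 and 6.27% of all), and 0 passed after adjustment in each of these 3 (0.0856, 0.0428 and 0% of all).

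In structure the member circles resembled the table at large. Their median spliced length was 403 bases over 159 placed circles, against 382 bases over 7318, with a median of 3 exons in both. Single-exon circles were 10.7% of members and 6.86% of the table, and most common in KLHL genes (4 of 9). Exon 2 was the first exon of 24.5% of members and 26.3% of the table, and of 14 of 27 F-box circles (51.9%). The start codon was held by 10.1% of members against 11.6%, and by none of the HECT and UBR circles. Circles made of coding sequence alone were 89.3% against 87.1%, with all 22 placed UBR circles among them. An exon edge was shared with another circle of the same host in 46.1% of members and 46.4% of the table. These shares were not tested.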

How the data were processed

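The authors deposited, for every circRNA, raw counts of reads across its back-splice junction. In a second table the authors deposited RPM values, which equal the counts scaled to the library's total of back-splice reads to within 0.00499 RPM. The study's methods name CIRCexplorer2 and CIRI2, and the submitters' processing notes BWA and hg38. No source used here gives their versions. The smallest count above 0 is 2. Samples were grouped by their labels. Counts were tested with edgeR 4.0.16 (R 4.3.3) with TMM factors across all circRNAs or hosts with at least 10 reads, and adjusted by Benjamini-Hochberg at 0.05. Standard errors were derived as the absolute log2 fold change over the root of F. Folds against 0 use a floor of 3 reads over the group's libraries, which covers counting error only. The tests were tried on simulated data. Alternatives were RLE or no factors, the order of groups after TMM or RLE scaling (added after seeing the data), DESeq2 1.42.0, limma 3.58.1 on log2 RPM with a pseudocount of 1 or 0.1, no filter or one of 20 reads, the replicate block and leaving out each library.

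Exons came from GENCODE 29, and gene names from it and RefSeq. For circles that exactly 1 range of exons could not place, no exons are given. Named were the 10 members with the highest mean RPM, those with an unadjusted p under 0.05 or reads in both libraries of 1 group only, hosts with at least 4 circles and the 5 leading hosts of each family. Other circles of those hosts were picked with their values in view. The members, families and lists were chosen with earlier results of these data known, UBE3A among them. In the list of other ligases, host names written as dates were not matched. Sequence shared with other genes was checked over 30 bases at circle ends, and 16 of 159 placed circles shared an end, 4 of them both. The results of some hosts are left out of the text and figures.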

Additional observations from a re-analysis of the deposited data

How the results depend on the processing

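Counts of calls among members moved with the test, while no result turned its direction past a threshold. The adjusted count was 1 circRNA with edgeR (0.0856% of all tested circRNAs), 0 with DESeq2 (0.0428%) and 0 with limma on log2(RPM + 1) (0%). It was 12 with limma on log2(RPM + 0.1), where 8.86% of all tested circRNAs passed, and 0 with a filter of 20 reads, where 0% passed. At an unadjusted p under 0.05, 2 circRNAs were higher (1.28% of all), against 5 with either limma setting (3.53% of all) and 0 with the filter of 20 reads (0.936%). Of lower circRNAs there were 3 (1.37% of all), against 6 with DESeq2 (1.91%), 8 with either limma setting (6.27%) and 1 with the filter of 20 reads (1.07%). Without scaling factors, which moved the median log2 fold change of all circRNAs by 0.10, 3 members were higher (1.61% of all) and 2 lower (1.16%). For hosts, the adjusted count was 0, against 7 with limma on log2(RPM + 0.1) (7.44% of all hosts) and 1 with no filter (0.0566% of all, UBE3A, adjusted p = 0.0159, edgeR). At an unadjusted p under 0.05, 1 host was higher (1.11% of all), against 2 without scaling factors (1.33%), 3 with either limma setting (2.55 and 2.52%) and 0 with the filter of 20 reads (1.15%). Lower hosts were 0, against 2 with DESeq2 (3.07%) and 5 with either limma setting (5.55%). The cause of these differences was not tested. Counts of calls with each library left out are not given, since such fits leave a group with a single library. The 12 calls with a pseudocount of 0.1 were all circles absent from 1 group, whose size depends on the pseudocount. The member share of reads differed by 0.0926 percentage points, and by -0.202 to 0.387 with each library left out.

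No pairing by replicate number was seen, as deviations of the replicates numbered 1 correlated at 0.00934 over 4671 circRNAs. Counts of 0 beside a clear count were common within groups, so this check cannot exclude a pairing. With the replicate block, 0 member circRNAs passed the adjusted threshold, against 0.278% of all tested circRNAs. At an unadjusted p under 0.05, 1 circRNA (0.899% of all) and 2 hosts (1.29%) were higher and 0 circRNAs lower (0.706%). The adjusted p of circUBE3A(4-8) was then 0.632 (edgeR). In each library a count of 0 leaves up to 3 reads possible by counting error alone.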
